A study of Mus musculus with 19 samples.

Results

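Genes that load peptides onto major histocompatibility complex (MHC) class I molecules were examined with 3 nonclassical class I heavy chain genes in type 1 conventional dendritic cells (DC1) of mice. The set was given by name: Tap1, Tap2, Tapbp, Tapbpl, B2m, Erap1, Nlrc5, H2-M2, H2-M3 and H2-T23. A gene was measured by the brightest array probe set that the platform annotation ties to it alone. All 10 genes were found among the 22180 genes of the spleen arrays. Of these, 9 were found among the 19938 genes of the lymph node arrays, where the H2-T23 probe set also carries the name of a pseudogene and was not analysed here.

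Class I molecules show peptides from inside the cell to CD8 T cells. Peptides made in the cytosol are pumped into the endoplasmic reticulum by the transporter TAP, trimmed there by ERAP1 and loaded onto a heavy chain paired with the light chain B2M. Tapasin and its relative TAPBPR hold the empty molecule and edit its peptide. NLRC5 switches on transcription of classical class I genes and of several loading genes. DC1 are known for loading class I with peptides of antigens they have taken up, a process called cross-presentation.

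All mice were on a C57Bl/6j background and none had a stated treatment. Batf3 encodes a transcription factor needed for most DC1, and Irf8VENUS is a fluorescent reporter of Irf8, the other factor DC1 depend on. In spleen, all from females, 2 arrays held WT Irf8VENUS- DC1, 3 held WT Irf8VENUS+ DC1 and 3 held Batf3-/- Irf8VENUS+ DC1. In skin-draining lymph nodes (SDLN, pooled from inguinal, cervical and brachial sites), every array was Irf8VENUS+, with 3 WT resident, 2 WT migratory, 3 Batf3-/- resident and 3 Batf3-/- migratory arrays. Resident DC1 were gated as high in CD11c and intermediate in MHC class II, and migratory DC1 as high in MHC class II and intermediate in CD11c. The sort of both replicate 3 arrays of spleen Irf8VENUS+ DC1 used CD24 only, whereas XCR1 was used as well as CD24 for every other spleen array. The labels list CD172a+ in the spleen gate and CD172- in the SDLN gate. The DC1 that Batf3-/- mice still have may not stand for the DC1 of WT mice. No label says that the arrays of a group were made from separate mice. The p-values therefore measure only the spread between arrays, which may be technical. These are bulk samples, so fewer cells of a type and less RNA per cell cannot be told apart.

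Values are log2 intensities, and differences are log2 differences with the standard error (SE) of the limma fit. A gene is called here when its limma p, adjusted by Benjamini-Hochberg over all 12875 spleen or 11931 SDLN genes tested, was under 0.05. The 2 tables come from different array types and were tested separately. All genes of the set passed the filter on dim genes. Batf3 was at 9.42 to 10.41 in spleen arrays labelled WT and at 5.29 to 7.08 in those labelled Batf3-/-. In SDLN it was at 8.15 to 9.23 in WT and at 5.50 to 6.17 in Batf3-/- arrays. Ccr7, the receptor that leads dendritic cells into lymph nodes, was at 11.31 to 12.66 in migratory and at 7.99 to 10.63 in resident arrays. The DC1 markers Xcr1, Clec9a and Tlr3 were lower in migratory than in resident arrays. Tlr3 was at 6.22 and 6.65 in WT migratory and at 4.89 to 5.78 in Batf3-/- migratory arrays, against 10.15 to 10.93 in resident ones. Migratory arrays thus carried the label DC1 with less of these markers, least in Batf3-/-.

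Promoter sequences from RefSeq were at hand for 7 of the 10 genes. They are shown for H2-M2, the gene with the widest range over the SDLN arrays, for Tap1, the transporter subunit called in 2 SDLN comparisons, and for B2m, called in 2. Each is the 250 bases before the transcription start, written 5′ to 3′ on the gene's strand in build GRCm38.p6, with matches to the motifs below in capitals. The H2-M2 stretch is chr17:37483555-37483804 on the minus strand, the Tap1 stretch is chr17:34187306-34187555 on the plus strand, and the B2m stretch is chr2:122147437-122147686 on the plus strand.
H2-M2: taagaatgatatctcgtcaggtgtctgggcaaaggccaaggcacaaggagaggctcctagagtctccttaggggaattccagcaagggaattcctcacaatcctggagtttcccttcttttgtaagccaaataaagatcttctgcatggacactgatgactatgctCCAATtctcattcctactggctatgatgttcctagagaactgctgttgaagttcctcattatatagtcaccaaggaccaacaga
Tap1: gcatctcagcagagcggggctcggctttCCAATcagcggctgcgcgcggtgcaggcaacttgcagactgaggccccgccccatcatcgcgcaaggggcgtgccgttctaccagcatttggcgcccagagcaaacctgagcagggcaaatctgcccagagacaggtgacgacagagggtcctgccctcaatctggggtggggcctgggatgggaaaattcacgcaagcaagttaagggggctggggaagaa
B2m: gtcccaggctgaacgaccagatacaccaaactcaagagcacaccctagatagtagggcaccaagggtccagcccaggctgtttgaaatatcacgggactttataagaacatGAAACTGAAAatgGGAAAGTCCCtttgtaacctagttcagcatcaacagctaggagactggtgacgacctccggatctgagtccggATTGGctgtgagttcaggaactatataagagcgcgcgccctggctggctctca
In these windows, extended by 50 bases past the start, 6 motifs were searched on both strands. The B2m window held the core of an interferon-stimulated response element (GAAA, any 2 bases, GAAA), which 3.43% of 32817 RefSeq promoter windows of 300 bases hold, and an NF-kB site (GGGA, any base, TTTCC), which 0.411% hold. The NF-kB match lies on the strand opposite the gene, from position -126 to position -117 of the start. The H2-M2 and Tap1 windows held only CCAAT, the Y box, which 37.4% of windows hold. H2-T23 and Erap1 also held the interferon-response core, and B2m, H2-T23, Tapbp and H2-M3 held CCAAT as well. None of the 7 windows held TGANTCA, the AP-1 and BATF site (7.81% of windows), the composite ETS-IRF element (GGAA, any 2 bases, GAAA; 2.72%) or the cyclic AMP response element TGACGTCA (1.79%). A match is a string of letters and was not measured as a binding site.

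H2-M2 encodes a nonclassical class I heavy chain, and its migratory level was the pattern for which it was included, so it is described here without a test. H2-M2 was at 5.78, 5.61 and 4.98 in the 3 WT resident arrays and at 10.2997 and 10.91 in the 2 WT migratory arrays. It was at 6.13, 5.13 and 6.04 in Batf3-/- resident arrays and at 10.13, 9.82 and 10.94 in Batf3-/- migratory arrays. Every migratory array was above every resident array in both genotypes, and resident levels were 4.98 to 6.13, above the SDLN table's median of 4.82. The migratory mean was higher by 5.15 in WT, a 35.5-fold difference, and array pairs differed by 4.52 to 5.93. In Batf3-/- it was higher by 4.53, or 23.1-fold, and pairs differed by 3.69 to 5.81. Among 11931 genes this was the 5th largest excess in migratory DC1 of WT and the 3rd largest in Batf3-/-. Between arrays whose titles share a code, the difference was 4.52 and 5.31 in WT and 4.004, 4.69 and 4.91 in Batf3-/-.

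The Batf3 genotypes did not differ detectably in H2-M2 within a migratory or resident gate. The migratory difference, Batf3-/- minus WT, was -0.31 ± 0.38 (SE; limma adjusted p = 0.621) and the resident one 0.31 ± 0.34 (adjusted p = 0.957). Their 95% intervals were -1.13 to 0.52 and -0.43 to 1.05. They leave room for more than a doubling in resident DC1 and for a fall of at least that size in migratory DC1. The migratory minus resident difference itself changed with genotype by -0.62, with an interval of -1.73 to 0.49 (limma adjusted p = 0.530).

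**Figure D1:**
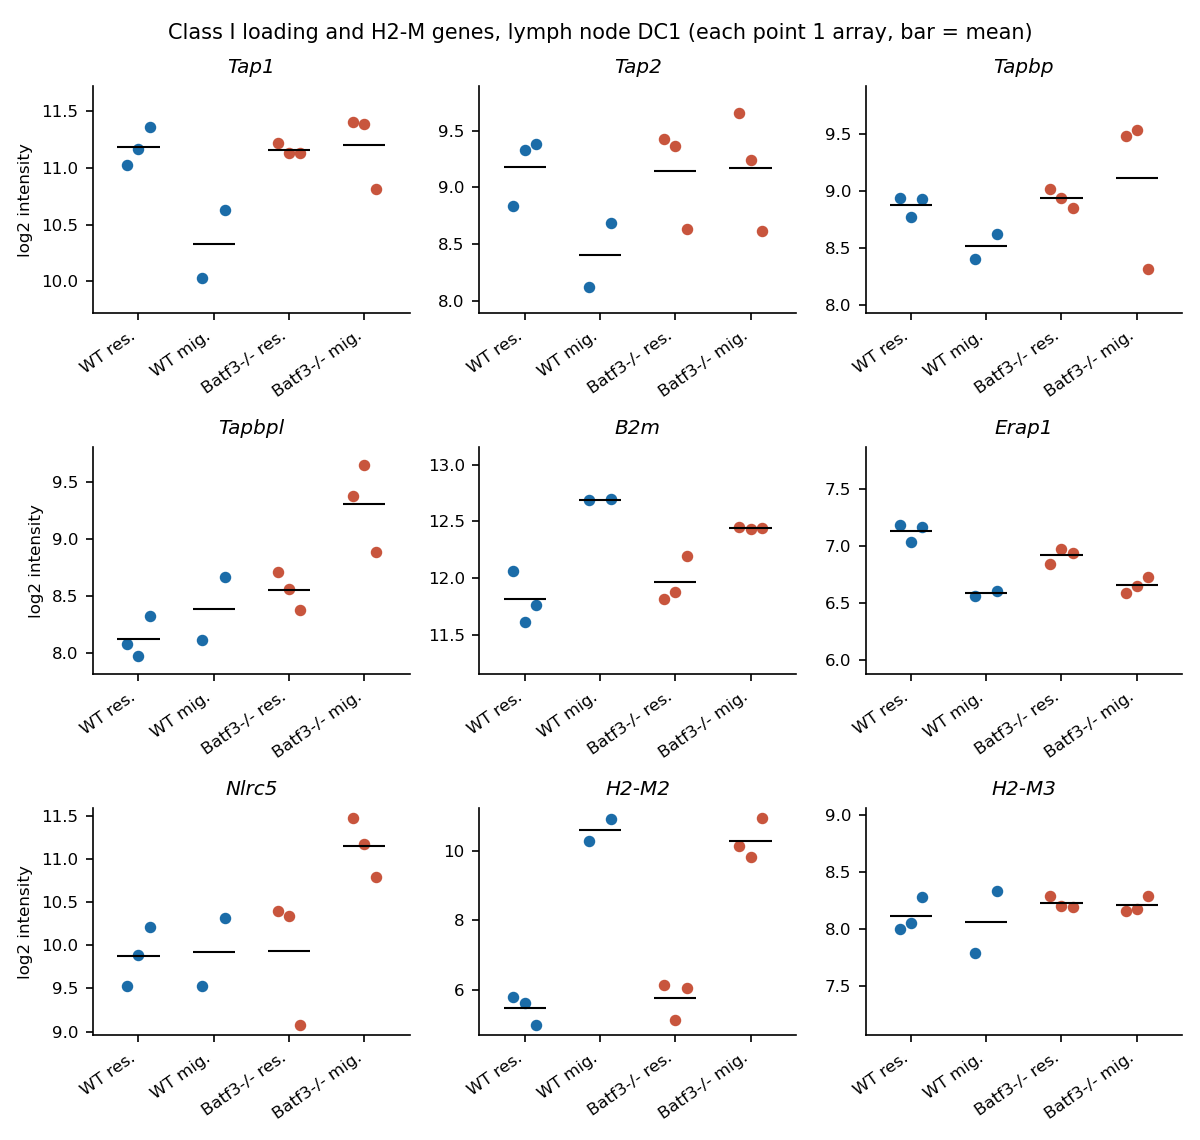
Log2 intensity of the 9 genes measured in SDLN DC1, with 1 point per array, a bar at each group mean, WT in blue and Batf3-/- in red; each panel has its own axis, which does not start at 0. H2-M2 lies between 4.98 and 6.13 in resident and between 9.82 and 10.94 in migratory arrays, and Tap1 is lowest in the 2 WT migratory arrays.

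In WT, migratory DC1 had more B2m and less Tap1 and Erap1 RNA than resident DC1. With H2-M2 set aside, 1 of 8 genes was higher and 2 were lower, where 49.2% of all genes tested were called in this comparison (16.0% higher and 33.2% lower). Their median difference was -0.21, beside -0.16 for all genes. Tap1, Erap1 and B2m stayed called after median centring of the arrays, but this does not remove that shift. The median of all values was higher in WT migratory (4.92 and 4.89) than in WT resident arrays (4.77, 4.73 and 4.78). Centring therefore moved each difference further down.

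B2m, the light chain common to class I molecules, was at 12.06, 11.61 and 11.77 in WT resident and at 12.69 and 12.70 in WT migratory arrays. Both migratory arrays were above all resident ones, and the difference was 0.88 ± 0.13 (SE; limma adjusted p = 2.14e-04), or 1.84-fold. Tap1, which with Tap2 forms the peptide transporter, was at 11.02, 11.16 and 11.36 in resident and at 10.03 and 10.62 in migratory arrays. The groups did not overlap, and Tap1 fell by 0.85 ± 0.20 (limma adjusted p = 0.00417), or 1.80-fold. Without WT migratory replicate 1, the lowest array, the difference was -0.56 and was no longer called (adjusted p = 0.0763). Erap1, the aminopeptidase, was at 7.18, 7.04 and 7.17 in resident and at 6.56 and 6.61 in migratory arrays. It fell by 0.54 ± 0.15 (limma adjusted p = 0.00868), and a further quantile normalization left -0.07 (adjusted p = 0.737).

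Tap2 followed the same order as Tap1 but was not called. Its resident arrays were at 8.84, 9.33 and 9.38 and its migratory arrays at 8.13 and 8.69, without overlap (-0.78 ± 0.32, limma adjusted p = 0.0642). Tapbp, the tapasin gene, was at 8.77 to 8.94 in resident and at 8.40 and 8.62 in migratory arrays, also without overlap (-0.37 ± 0.30, limma adjusted p = 0.321). In all, 4 of the 8 genes were lower without overlap, against 44.2% of all genes, and B2m alone was higher without overlap, against 26.1%. Tapbpl (0.27), Nlrc5 (0.05) and H2-M3 (-0.05) had overlapping groups and were not called.

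In Batf3-/- DC1 the migratory cells had more B2m, Nlrc5 and Tapbpl RNA than the resident cells, and Tap1 and Tap2 had overlapping groups and were not called. Of 8 genes 3 were higher and 0 were lower, where 36.6% of all genes were called (14.1% higher and 22.6% lower). Their median was 0.11, beside -0.02 for all genes. The 3 genes were also those higher without overlap, against 20.0% of all genes, and Erap1 was lower without overlap, against 26.8%. The replicate numbers were taken to pair these arrays, but the fit had no replicate block. With such a block no call of these 8 genes changed.

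B2m was at 11.82, 11.88 and 12.20 in Batf3-/- resident and at 12.45, 12.43 and 12.44 in Batf3-/- migratory arrays. Every migratory array was higher, by 0.48 ± 0.12 on average (SE; limma adjusted p = 0.0070). Nlrc5, the transactivator, was at 10.405, 10.34 and 9.08 in resident and at 11.48, 11.18 and 10.79 in migratory arrays. The groups did not overlap and the difference was 1.21 ± 0.34 (limma adjusted p = 0.0130), or 2.31-fold. Without Batf3-/- migratory replicate 1 it was 1.05 and missed the threshold (adjusted p = 0.0518). Tapbpl, which encodes TAPBPR, was at 8.71, 8.56 and 8.38 in resident and at 9.38, 9.65 and 8.89 in migratory arrays. All 3 migratory arrays were higher, by 0.76 ± 0.22 (limma adjusted p = 0.0155), and the call was lost without Batf3-/- migratory replicate 2 (adjusted p = 0.0693) or Batf3-/- resident replicate 3 (adjusted p = 0.0514). Tap1 differed by 0.04 ± 0.18, with an interval of -0.35 to 0.43, and Tap2 by 0.03 ± 0.29.

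Migratory DC1 lacking Batf3 had more Tap1 and Tapbpl RNA than WT migratory DC1. Of 9 genes 2 were higher and 0 were lower, where 9.41% of all genes were called (7.13% higher and 2.28% lower). The difference was above 0 for 7 of the 9, with a median of 0.60 beside 0.10 for all genes. This comparison shares its arrays with the 2 above, so its values do not stand apart from them.

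Tap1 was at 10.03 and 10.62 in the 2 WT migratory arrays and at 11.40, 11.39 and 10.81 in the 3 Batf3-/- migratory arrays. All Batf3-/- arrays were above both WT arrays, replicate 3 by the least, and the difference was 0.87 ± 0.20 (SE; limma adjusted p = 0.0237), or 1.83-fold. Tapbpl was at 8.11 and 8.66 in WT and at 9.38, 9.65 and 8.89 in Batf3-/- arrays. Its groups did not overlap either, and it was higher by 0.92 ± 0.24 (limma adjusted p = 0.0362), or 1.89-fold. Nlrc5 was at 9.53 and 10.32 in WT and at 11.48, 11.18 and 10.79 in Batf3-/- arrays. Its difference, 1.22 ± 0.38, was the largest of the set without overlap, but it missed the threshold (limma adjusted p = 0.0588).

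Tap2 (0.77 ± 0.32, limma adjusted p = 0.138) and Tapbp (0.60 ± 0.30, limma adjusted p = 0.197) had overlapping groups. In both, Batf3-/- replicate 3 was among the low values, at 8.61 for Tap2 and 8.31 for Tapbp, and the other Batf3-/- arrays were above both WT arrays. B2m was at 12.69 and 12.70 in WT and at 12.43 to 12.45 in Batf3-/- arrays, so every Batf3-/- array was lower (-0.25 ± 0.13, limma adjusted p = 0.225). Genes higher without overlap numbered 3 of 9, against 24.2% of all genes, and B2m was lower without overlap, against 12.4%. Erap1 (0.07) and H2-M3 (0.14) had overlapping groups and were not called.

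The calls for Tap1 and Tapbpl rested on few arrays. Tap1 was 0.57 without WT migratory replicate 1 (limma adjusted p = 0.211), 0.77 without Batf3-/- migratory replicate 1 (0.0881) and 0.78 without Batf3-/- migratory replicate 2 (0.0862), and Tapbpl was lost in the same 3 fits. Without Batf3-/- migratory replicate 3, 5 genes were called higher: Tap1, Tapbpl, Tap2, Tapbp and Nlrc5. Calls over all 11931 genes also rose with an array left out, to at most 3570 against 1123 in the full fit. Between arrays with the same title code, Tap1 differed by 1.37 and 0.76 and Tapbpl by 1.27 and 0.99.

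**Figure D2:**
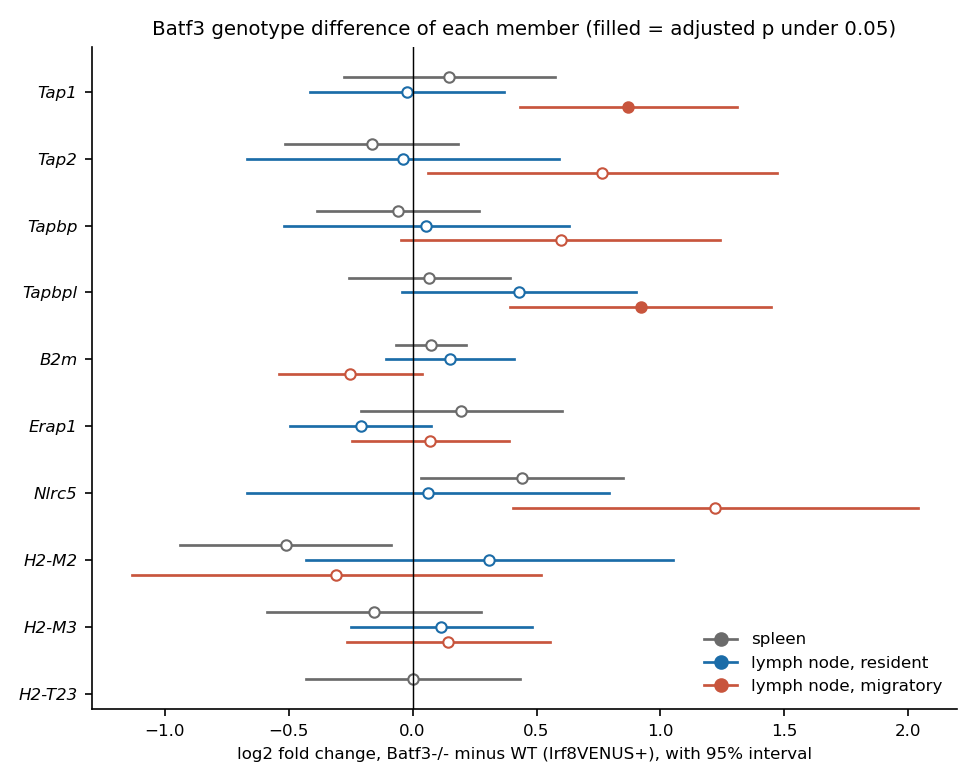
Log2 difference of each gene between Batf3-/- and WT Irf8VENUS+ DC1 with its 95% interval, for spleen (grey), SDLN resident (blue) and SDLN migratory (red) cells; filled points have a limma adjusted p under 0.05. The filled points are Tap1 at 0.87 and Tapbpl at 0.92 in migratory DC1, and H2-M2 lies below 0 in spleen and migratory DC1 with no filled point.

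The arrays also differed in the spread of all their values, and this moved with the migratory result. The SD of all log2 values of an array was 1.96 and 2.03 in the WT migratory arrays and 2.16, 2.15 and 2.07 in the Batf3-/- migratory arrays, while resident arrays were at 2.16 to 2.23. The 2 WT migratory arrays had the narrowest values, and Batf3-/- migratory replicate 3 came next. With this SD as a term of the fit, 0 of the 9 genes were called between the genotypes in migratory DC1. Tap1 was 0.15 (limma adjusted p = 0.834) and Tapbpl 0.12 (limma adjusted p = 0.898). The fit without the term called 1123 of all genes, and over the alternative fits this count ran from 7 to 3570. The shares of all genes called with the term are not given here, so its calls have no share beside them. In the WT comparison of migratory with resident DC1, Tap1 was then 0.34 (limma adjusted p = 0.595), B2m 0.53 (adjusted p = 0.332) and Erap1 -0.68 (adjusted p = 0.209), while Tapbpl, at 1.58 (adjusted p = 0.0368), and Nlrc5, at 2.48 (adjusted p = 0.0252), were called higher. In Batf3-/- B2m was then 0.36 (limma adjusted p = 0.0866), and Tap2 (0.75, adjusted p = 0.0155) and Tapbp (0.72, adjusted p = 0.0399) were called higher in migratory DC1. With 11 arrays in 4 groups, the spread largely coincides with the migratory state in WT and with genotype within the migratory gate. Batf3-/- migratory replicates 1 and 2, at 2.16 and 2.15, were close to the lowest resident array, at 2.16.

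**Figure D3:**
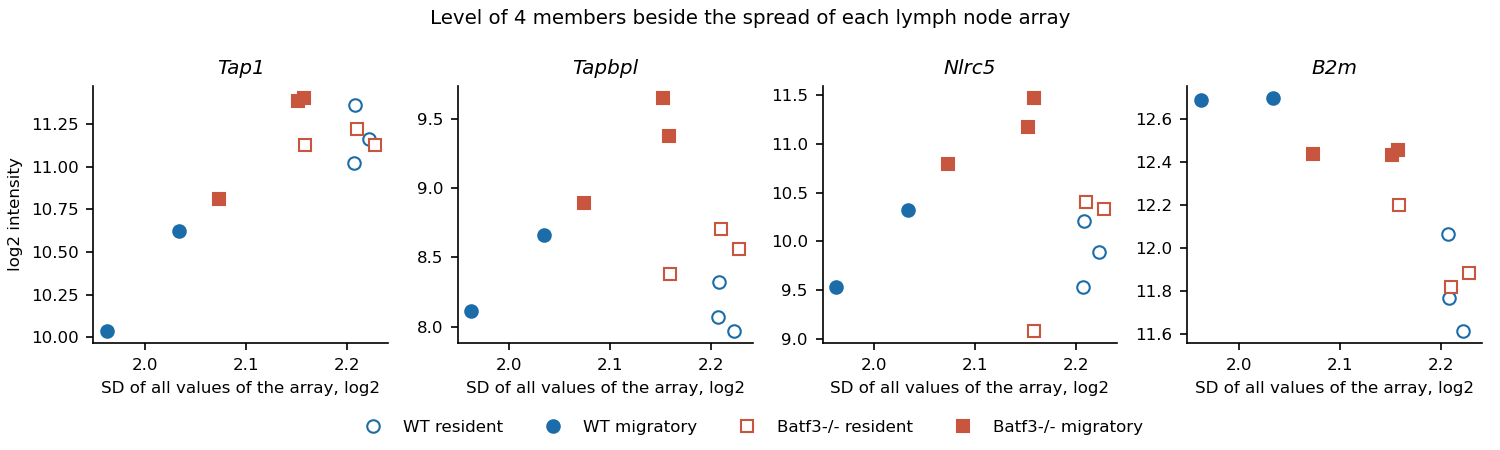
Log2 intensity of Tap1, Tapbpl, Nlrc5 and B2m in each SDLN array (vertical axis) against the SD of all log2 values of that array (horizontal axis), with WT as circles, Batf3-/- as squares and migratory arrays filled. The WT migratory arrays are at the left, at 1.96 and 2.03, with the lowest Tap1 and the highest B2m.

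Markers of other cells also differed between the SDLN groups. The summed intensity of 7 B cell markers was 461 to 606 in WT migratory, 184 to 403 in Batf3-/- migratory, 141 to 194 in WT resident and 160 to 206 in Batf3-/- resident arrays. Of the 6 that passed the filter, 2 were lower in Batf3-/- than in WT migratory DC1, Ms4a1 and Cxcr5, where 2.28% of all genes were called lower. All 6 were higher in WT migratory than in WT resident DC1, where 16.0% of all genes were called higher. The sum of 7 T cell markers was 511 to 999 in WT migratory and 365 to 752 in Batf3-/- migratory arrays, and that of 6 macrophage and monocyte markers was 121 to 163 and 170 to 184. C1qa and C1qb were higher in Batf3-/- migratory DC1, where 7.13% of all genes were called higher. The sum of 6 markers of type 2 conventional dendritic cells was 303 to 315 in WT migratory and 332 to 648 in Batf3-/- migratory arrays. Their mean log2 level overlapped, at 5.30 to 5.36 and 5.25 to 5.98. In resident arrays that sum was 773 to 1632 in WT and 1099 to 1660 in Batf3-/-. The sum of 4 Langerhans cell markers was 289 to 306 in WT migratory and 495 to 764 in Batf3-/- migratory arrays. It was 680 to 835 in WT resident and 1646 to 2102 in Batf3-/- resident arrays. Cd207, Epcam and Cdh1 did not pass the filter, so these sums are mostly Cldn1. Cldn1, the 1 marker tested, was higher in Batf3-/- migratory DC1 by 1.297 (limma adjusted p = 0.00833). The mean log2 level of the 4 was 5.11 to 5.12 in WT migratory and 5.28 to 5.53 in Batf3-/- migratory arrays. In resident arrays it overlapped, at 5.42 to 5.87 in WT and 5.63 to 5.79 in Batf3-/-. The SDLN sort had removed EpCam+ cells. Of 10 DC1 markers, 4 were lower in Batf3-/- than in WT migratory DC1 (Xcr1, Tlr3, Cadm1 and Clec9a) and 0 were higher. Among all genes, 2.28% were called lower there and 7.13% higher. None of these markers can be read as absent on an array, and their part in the values of Tap1, Tapbpl and B2m was not tested.

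Between resident DC1 of the 2 genotypes, no gene of the set passed the test. None of 9 genes was called by limma, where 1.84% of all genes were called and 1146 of 11931 had an unadjusted p under 0.05, and their median was 0.06 beside -0.01 for all genes. Tap1 was at 11.02 to 11.36 in WT and at 11.13 to 11.22 in Batf3-/- resident arrays, a difference of -0.02 with an interval of -0.41 to 0.37. Tapbpl was at 8.07, 7.97 and 8.32 in WT and at 8.71, 8.56 and 8.38 in Batf3-/- arrays, so its groups did not overlap (0.43 ± 0.22, limma adjusted p = 0.603), as for 8.61% of all genes in that direction. Erap1 was at 7.04 to 7.18 in WT and at 6.84 to 6.98 in Batf3-/- arrays, lower without overlap (-0.21 ± 0.13, limma adjusted p = 0.771), as for 11.2% of all genes. The intervals of Nlrc5 (-0.67 to 0.79) and Tap2 (-0.67 to 0.59) are wide.

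The Batf3 difference was then compared between the migratory and resident gates in 1 model. None of 9 genes was called by limma for this difference of differences, where 1.24% of all genes were called and 2285 of 11931 had an unadjusted p under 0.05. Tap1 came closest, with 0.89 ± 0.27 (SE; limma adjusted p = 0.113), followed by Nlrc5 with 1.16 ± 0.50 (limma adjusted p = 0.237). B2m came next and went the other way, with -0.40 ± 0.18 (limma adjusted p = 0.244), and then Tap2 with 0.81 ± 0.43 (limma adjusted p = 0.332). The difference was above 0 for 7 of the 9, with a median of 0.49 beside 0.12 for all genes. A migratory difference that passed and a resident one that did not are therefore not shown to differ for Tap1 or Tapbpl. Without Batf3-/- migratory replicate 3, Tap1 (1.09, limma adjusted p = 0.0117) and Tapbp (0.94, adjusted p = 0.0112) were called. Without WT migratory replicate 2, which leaves 1 WT migratory array, Tap1 was 1.19. Calls over all genes also rose with an array left out, to at most 1713 against 148 in the full fit.

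Nlrc5 was read by 19 probe sets on the SDLN array, of which the brightest was used above. All 19 were higher in Batf3-/- than in WT migratory DC1, by 0.37 to 1.80 with a median of 1.04, and 14 did so without overlap. All 19 were also higher in migratory than in resident Batf3-/- DC1, by 0.64 to 1.48 with a median of 1.13. In WT, 14 of 19 were higher in migratory DC1, from -0.72 to 1.09 with a median of 0.31. In resident DC1, 13 of 19 were higher in Batf3-/- than in WT, and 6 did so without overlap. The resident differences ran from -0.21 to 0.47 with a median of 0.24. Over all genes, the brightest probe set was higher in Batf3-/- without overlap for 24.2% in migratory and 8.61% in resident DC1. The 19 Nlrc5 probe sets read the same RNA on the same arrays and are not replicates. With the mean of all 19 in place of the brightest, the migratory difference was 1.09 and was called (limma adjusted p = 0.0316). Batf3-/- resident replicate 3, at 9.08 on the brightest probe set, was the lowest of the 6 resident arrays on 8 of the 19.

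**Figure D4:**
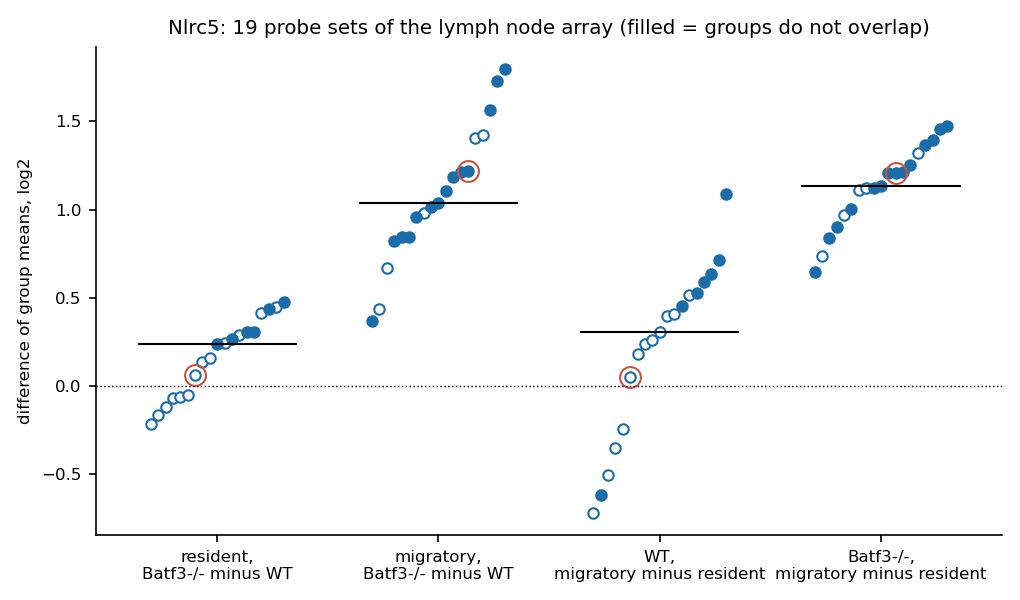
Difference of group means in log2 for each of the 19 Nlrc5 probe sets in 4 SDLN comparisons, sorted within a comparison, with a bar at the median; filled points have groups that do not overlap and the ringed point is the brightest probe set. All points are above 0 for migratory Batf3-/- minus WT (0.37 to 1.80) and for Batf3-/- migratory minus resident (0.64 to 1.48).

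In spleen, the loading genes varied little over the 3 groups and H2-M2 varied most. Between Batf3-/- and WT Irf8VENUS+ DC1, limma called 0 of 10 genes, where 0.738% of all genes were called and 1343 of 12875 had an unadjusted p under 0.05. Their median was 0.03, beside -0.02 for all genes. Tap1 was at 8.77 to 9.31 in WT and at 8.83 to 9.35 in Batf3-/- arrays (0.15 ± 0.19, limma adjusted p = 0.832). B2m was at 12.92, 13.03 and 12.91 in WT and at 13.05, 13.05 and 13.00 in Batf3-/- arrays, a difference of 0.07 with an interval of -0.07 to 0.22. The groups overlapped for Tap1 and B2m, and for Tap2, Tapbp, Tapbpl, Erap1, H2-M3 and H2-T23.

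Nlrc5 was at 7.45, 7.22 and 7.18 in WT and at 7.87, 7.46 and 7.84 in Batf3-/- Irf8VENUS+ arrays of spleen. The groups did not overlap, as for 6.15% of all genes in that direction, and the difference was 0.44 ± 0.18 (SE; limma adjusted p = 0.436). H2-T23, which encodes the heavy chain of Qa-1, was at 7.79, 7.52 and 6.91 in WT and at 8.01, 7.59 and 6.62 in Batf3-/- arrays. Its lowest array in each genotype was replicate 3, the one sorted on CD24 alone, and the difference was 0.00 with an interval of -0.43 to 0.43. H2-M3, whose product presents formylated peptides, was at 8.14 to 8.85 in WT and at 8.08 to 8.55 in Batf3-/- arrays (-0.16 ± 0.19, limma adjusted p = 0.823).

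H2-M2 was at 8.43 and 8.50 in the WT Irf8VENUS- arrays, at 7.57, 7.00 and 7.16 in WT Irf8VENUS+ arrays and at 6.75, 6.67 and 6.76 in Batf3-/- Irf8VENUS+ arrays. The 3 spleen groups did not overlap and stood in that order. H2-M2 was lower in Batf3-/- Irf8VENUS+ than in WT Irf8VENUS- DC1 by -1.72 ± 0.22 (SE; limma adjusted p = 0.0179), or 3.30-fold, and was the only gene of the 10 called there, where 0.559% of all genes were called (0.280% lower). The groups did not overlap, as for 12.5% of all genes in that direction. WT Irf8VENUS+ minus WT Irf8VENUS- was -1.21 ± 0.22 (limma adjusted p = 0.246), without overlap, as for 1330 of 12875 genes in that direction. In that comparison limma called 0 of 10 genes, where 0.0233% of all genes were called and 1018 of 12875 had an unadjusted p under 0.05. The Batf3 step within Irf8VENUS+ DC1 was -0.51 ± 0.18 (limma adjusted p = 0.369), without overlap, as for 6.56% of all genes in that direction. It was -0.57 among arrays of the gate with XCR1.

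The H2-M2 call depended on every array: without any 1 of the 5 arrays compared, the difference stayed between -1.67 and -1.76 and the limma adjusted p was 0.0619 to 0.179. WT Irf8VENUS- replicates 1 and 2 and Batf3-/- replicates 1, 2 and 3 each ended the call when left out. The comparison with Irf8VENUS- DC1 joins the reporter and the genotype, which cannot be told apart in it. Ccr7, high with H2-M2 in the SDLN migratory arrays, was at 9.89 to 10.47 in spleen Batf3-/- arrays, at 7.39 to 8.99 in WT Irf8VENUS+ and at 9.09 to 9.84 in WT Irf8VENUS- arrays, so in spleen the lowest H2-M2 stood beside the highest Ccr7. The sum of 4 Langerhans cell markers was 959 to 1540 in Batf3-/- and 334 to 370 in WT Irf8VENUS- arrays. Of the 2 tested, Cldn1 was higher and Cd207 lower, and Epcam and Cdh1 did not pass the filter. Between the same arrays, 6 markers of type 2 conventional dendritic cells summed to 664 to 700 against 403 to 481. The sum of 5 plasmacytoid dendritic cell markers was 795 to 1057 against 443 to 520. That of 4 stromal and endothelial markers was 339 to 498 against 251 to 335. No gene tested in these last lists was called, where 0.559% of all genes were. No marker list summed lower in Batf3-/- without overlap. The part of these markers in the H2-M2 difference was not tested.

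Tap2 and Tapbpl were higher without overlap in WT Irf8VENUS+ than in Irf8VENUS- DC1 of spleen, as were 14.6% of all genes. Both, with Nlrc5, were also higher without overlap in Batf3-/- Irf8VENUS+ than in WT Irf8VENUS- DC1, as were 14.4%. Tapbpl was at 8.05 and 7.93 in Irf8VENUS-, at 8.36, 8.49 and 8.40 in WT Irf8VENUS+ and at 8.51, 8.50 and 8.45 in Batf3-/- Irf8VENUS+ arrays. Neither the first step (0.44 ± 0.17, limma adjusted p = 0.587) nor the difference between the outer groups (0.51 ± 0.17, limma adjusted p = 0.359) was called. Tap2 was at 6.71 and 6.91 in Irf8VENUS- and at 7.24, 7.31 and 6.93 in WT Irf8VENUS+ arrays (0.42 ± 0.18, limma adjusted p = 0.619). Erap1 was at 8.37 and 8.10 in Irf8VENUS- arrays and at 7.88 to 8.32 in the others, with overlap.

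**Figure D5:**
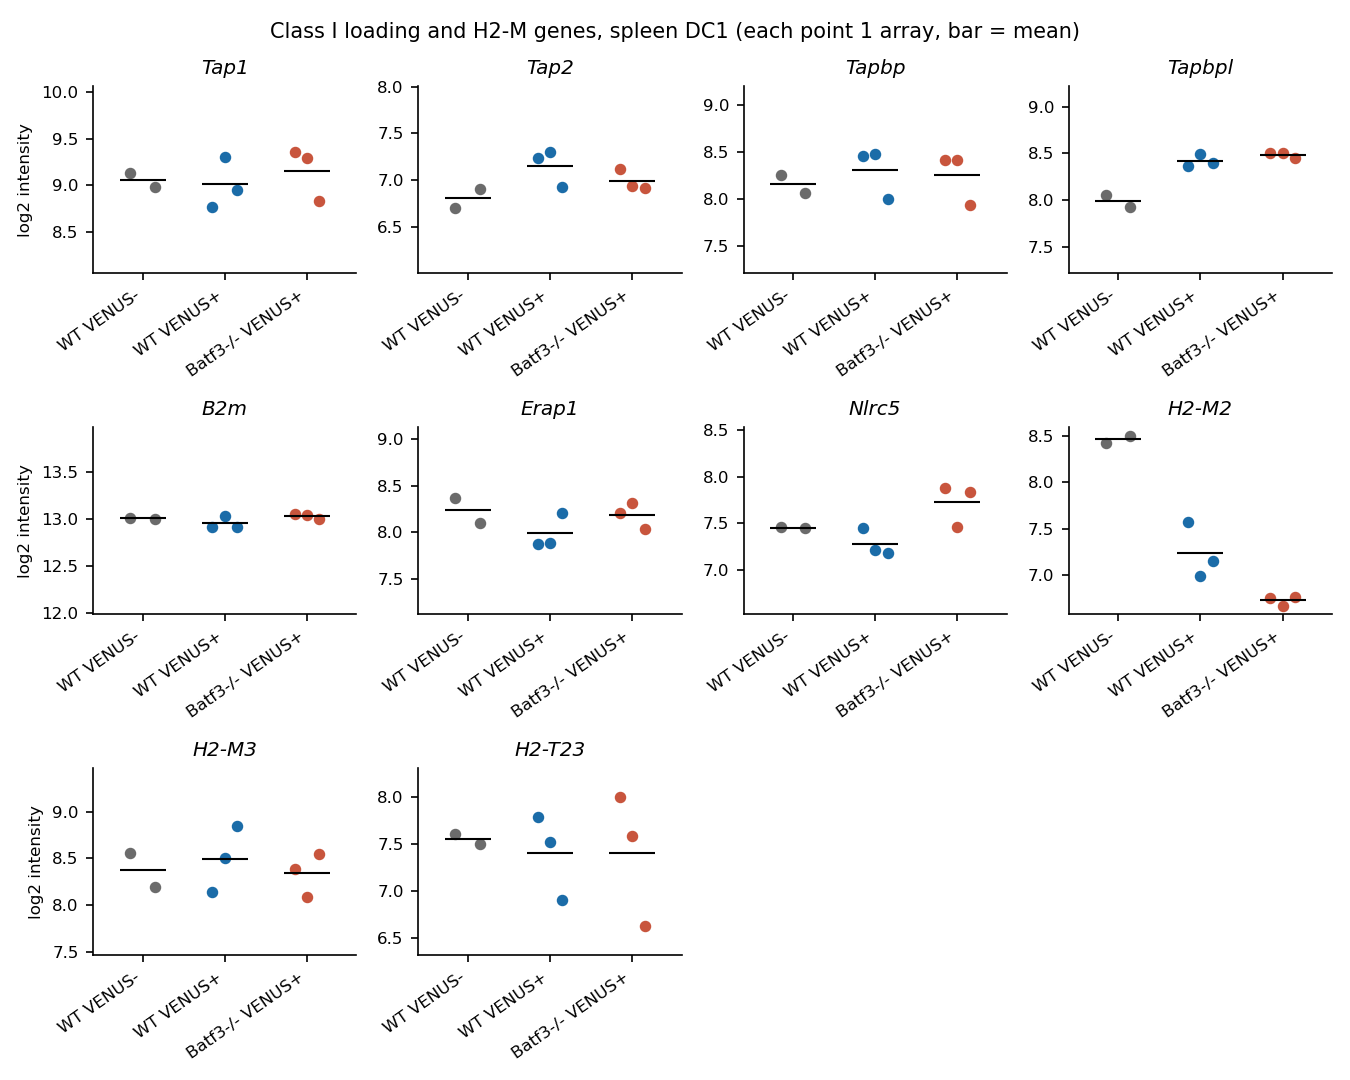
Log2 intensity of the 10 genes in spleen DC1, with 1 point per array and a bar at each group mean; each panel has its own axis, which does not start at 0. H2-M2 steps down from 8.43 and 8.50 in WT Irf8VENUS- to 6.67 to 6.76 in Batf3-/- Irf8VENUS+ arrays, and B2m stays between 12.91 and 13.05.

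Other genes of class I presentation were counted in 8 groups: classical heavy chains, Q and T region heavy chains, other M region heavy chains, class I-like genes, endoplasmic reticulum chaperones, immunoproteasome and activator, peptidases and regulators. Of 76 listed, 49 were tested in spleen and 50 in SDLN. In spleen 0 of 49 were called between the Irf8VENUS+ genotypes, where 0.738% of all genes were. In SDLN resident DC1 0 of 50 were, where 1.84% of all genes were. Both counts are near those shares. In migratory DC1, 3 of 50 were higher in Batf3-/- than in WT, namely the heavy chain H2-Q4 (1.11, limma adjusted p = 0.0290), the kinase Jak2 (0.82) and the interferon factor Irf9 (0.70), and H2-Q10 was lower (-0.56). That is no larger a share than the 7.13% higher and 2.28% lower of all genes. Irf1, an activator of class I transcription (0.70, limma adjusted p = 0.0576), and the immunoproteasome subunit Psmb9, whose gene neighbours Tap1 (0.64, limma adjusted p = 0.0905), were not called. Psmb8 (0.36) and the class I promoter factor Rfx5 (0.05) were not called either.

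Between migratory and resident DC1, 9 of these 50 were higher and 20 lower in WT, and 14 higher and 16 lower in Batf3-/-, where 16.0% and 33.2% of all genes were called in WT and 14.1% and 22.6% in Batf3-/-. The WT counts are near those shares. All 8 endoplasmic reticulum chaperones fell in both genotypes, among them Hspa5, the chaperone BiP (-2.57 in WT and -1.77 in Batf3-/-), and the class I loading chaperone Pdia3 (-1.34 and -1.08). All 6 Q and T region heavy chains tested rose in Batf3-/-, led by H2-Q4 (1.46) and H2-Q5 (1.15), and 2 of them passed in WT. Irf1 rose by 1.32 in WT and 1.44 in Batf3-/-, and the interferon-gamma receptor chain Ifngr1 fell by 2.77 and 3.23. Psmb9 fell by 0.82 in WT (limma adjusted p = 0.0117), as Tap1 did, and differed by 0.16 in Batf3-/- (limma adjusted p = 0.586). The change of the Batf3 difference between gates was called for 0 of these 50 genes, near the 1.24% of all genes called.

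The genes whose levels ran most like those of the set over the 11 SDLN arrays were found among 11276 genes by Pearson's r, as a description. For H2-M2 they were Atxn1 (0.994), Sdhaf1 (0.992), Fah (0.991), Serpinb1a (0.991) and Clec2d (0.989), and each was high in both migratory groups. For Tap1 they were Osbpl11 (0.978), Mpnd (0.977), Nisch (0.976), Btbd2 (0.974) and Dapk3 (0.973), each lowest in WT migratory DC1. For Nlrc5 they were Ctsz (0.971), Ostf1 (0.970), Triobp (0.970), Tcf7l2 (0.956) and Ncoa2 (0.955), each highest in Batf3-/- migratory DC1. Within the set, Tap1 ran with Tap2 (0.870) and Tapbp (0.772), B2m with H2-M2 (0.908), and Nlrc5 with Tapbpl (0.862), while Erap1 ran opposite to H2-M2 (-0.902). The arrays share their resident or migratory gate and the spread of their values, which enter each r.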

How the data were processed

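RNA of sorted DC1 was prepared with a low-input kit and hybridised to Affymetrix arrays, per the labels' protocols. The deposited spleen values were linear intensities (1.85 to 13035.5), of which log2 was taken. The lymph node table was deposited in log2 (1.35 to 13.96). RMA is named per the submitters' processing notes, with a version not given in the sources. No background per probe was at hand, and the small number of arrays limits precision.

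Of 41345 spleen probe sets, 23521 had 1 symbol, 1814 several and 16010 none. Of 35556 lymph node probe sets, 21789 had 1, 1621 several and 12146 none. Gene identifiers of a RefSeq table updated the symbols for 23328 and 21698 of those with 1 symbol. Each gene took its brightest single-symbol probe set, and was tested if at least 2 arrays reached the table's median (5.04 in spleen, 4.82 in SDLN). Shared probe sets were not used, so the classical heavy chain genes were analysed only for H2-K1 in spleen.

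Differences were tested with limma (version 3.58.1, R version 4.3.3; eBayes with trend) on all arrays of a table. P-values were adjusted by Benjamini-Hochberg over every tested gene, at a threshold of 0.05. Sort gate was a term of the spleen fit. The fit was tested on simulated data. Named genes were all members, the called pathway genes with large differences, and Psmb8, Psmb9, Irf1 and Rfx5. The members, the pathway and marker lists and the alternatives were chosen with earlier results of these data known.

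Lymph node titles share a code within a replicate number. Deviations from group means of same-numbered Batf3-/- resident and migratory arrays correlated at 0.416, 0.210 and 0.479, so the numbers were taken to pair these arrays, although replicates 1 and 2 of differing number also reached 0.184 and 0.218. The other groups did not meet that rule. The fits had no block, and a replicate block was an alternative beside other filters, normalizations, probe set rules, variance models, weights and left-out arrays.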

Additional observations from a re-analysis of the deposited data

How the results depend on the processing

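Members called are counted here. Between the spleen Irf8VENUS+ genotypes the count was 0 in all 18 alternatives. For WT Irf8VENUS+ minus Irf8VENUS- it was 1 with array weights (H2-M2, -1.39, limma adjusted p = 0.0324) and 0 to 1 with an array left out. For Batf3-/- Irf8VENUS+ minus WT Irf8VENUS- it was 0 with only the arrays sorted on CD24 and XCR1 (H2-M2, -1.75, limma adjusted p = 0.0641) and 0 with any array left out. For resident DC1 it was 1 with array weights (Tapbpl, 0.52, limma adjusted p = 0.0415). For migratory Batf3-/- minus WT it was 0 with quantile normalization again (Tap1 0.65, Tapbpl 0.61), 0 with only the groups compared, which left the differences at 0.87 and 0.92 and raised the adjusted p, 0 with each array's SD as a term (0.15 and 0.12), 5 with array weights and 0 to 5 with an array left out. For the change of the Batf3 difference it was 1 with array weights and 0 to 2 with an array left out. Tap1 in WT migratory minus resident DC1, at 0.34 with that SD as a term, was the 1 called difference whose sign turned. Of differences not called, 18 others turned with that term, among them Tap2 (1.41) and Tapbp (1.295) in WT migratory minus resident DC1 and Tap2 (-0.56), Tapbp (-0.41) and Nlrc5 (-0.25) in migratory Batf3-/- minus WT. Under the other settings 66 turned, each of them 0.37 or less in size in the fit reported. The cause of these turns was not tested. For migratory minus resident the count was 2 to 4 in both genotypes, but not of the same genes. With that SD as a term, WT lost Tap1, B2m and Erap1 and gained Tapbpl and Nlrc5, and Batf3-/- lost B2m (0.36, limma adjusted p = 0.0866) and gained Tap2 and Tapbp.

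With a replicate block, Nlrc5 in migratory Batf3-/- minus WT was 1.37 (limma adjusted p = 0.0242) and Tap2 in WT migratory minus resident was -0.92 (limma adjusted p = 0.0247). Both passed. For the arrays taken as paired, Batf3-/- migratory minus resident, the block changed no call. Over all genes, the count called between the Irf8VENUS+ genotypes ran from 24 to 262 over the alternatives around 95, in resident DC1 from 95 to 981 around 220, in migratory DC1 from 7 to 3570 around 1123, and for the change of the Batf3 difference from 17 to 1713 around 148. The counts were 0 to 18 around 3 and 6 to 164 around 72 in the spleen comparisons with Irf8VENUS- DC1, 1263 to 8873 around 5870 for WT and 3287 to 5350 around 4371 for Batf3-/- migratory minus resident. Groups of 2 or 3 arrays and the lack of a background per probe limit what can be called, and dim genes have no floor here.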

Other observations

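Of 5 class I-like genes outside the MHC that were tested, 3 were higher and 1 was lower in migratory than in resident DC1 of WT, where 49.2% of all genes were called. In Batf3-/- 1 was higher and 1 lower, where 36.6% were, so that count is near the share of all genes. Cd1d2 was higher in WT by 0.79 (limma adjusted p = 0.00494). Cd1d1, which presents lipids to NKT cells, was at 5.28, 5.35 and 5.22 in WT resident and at 6.18 and 5.64 in WT migratory arrays, and was called higher by 0.63 ± 0.17 (SE; limma adjusted p = 0.0105). In Batf3-/- it was at 4.61, 4.78 and 5.03 in resident and at 5.71, 5.86 and 5.76 in migratory arrays, and was higher by 0.97 ± 0.16 (limma adjusted p = 3.69e-04). Mr1, which presents vitamin B metabolites to MAIT cells, was called higher in migratory DC1 of WT (0.96 ± 0.23, limma adjusted p = 0.00499), and was 0.50 ± 0.21 in Batf3-/- (limma adjusted p = 0.0807). Hfe, which takes part in iron sensing, was at 6.21 to 6.60 in WT resident, 5.39 and 5.66 in WT migratory, 7.06 to 7.30 in Batf3-/- resident and 5.27 to 5.86 in Batf3-/- migratory arrays. It fell in migratory DC1 by 0.88 in WT (limma adjusted p = 0.00344) and by 1.68 in Batf3-/- (limma adjusted p = 1.55e-05). In spleen, Cd1d1 was at 7.37 and 7.66 in WT Irf8VENUS-, at 7.13, 6.99 and 6.54 in WT Irf8VENUS+ and at 6.32, 6.18 and 5.90 in Batf3-/- Irf8VENUS+ arrays. The 3 groups did not overlap and stood in the same order as for H2-M2. The outer groups differed by -1.24 ± 0.18 (limma adjusted p = 0.0308). Among all genes, 0.280% were called lower there and 12.5% were lower without overlap. That comparison joins the reporter and the genotype, which cannot be told apart in it. With an array left out, calls over all genes in it were 6 to 38, against 72 in the full fit. Whether the Cd1d1 call was among them is not given here.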
